A study of Mus musculus with 23 samples.

Results

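The genes of the postsynaptic scaffolds Homer, Shank and Dlg were compared between UBB+1 tg and wild-type mice in the hippocampal field CA3, at the age of 18 months. The members were the 10 genes Homer1, Homer2, Homer3, Shank1, Shank2, Shank3, Dlg1, Dlg2, Dlg3 and Dlg4, taken through every probe set that the array annotation assigns to that gene alone. A probe set is the group of short probes by which an Affymetrix array measures a transcript. For 9 of the 10 genes there were 23 such probe sets, 14 of the 22625 tested on the MOE430A array and 9 of the 22511 tested on the MOE430B array. No probe set was annotated to Shank2 alone, so that Shank2 has no value here. The members were chosen by name. Homer1 and Homer2 also stand in the list of regulated genes that the study drew from these same arrays, so that values for them given below are not independent evidence.

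UBB+1 tg mice were heterozygous for a transgene of the frameshifted ubiquitin UBB+1 under the CamKIIα promoter, which is active in neurons after birth. They belonged to 1 transgenic line on the C57BL/6J background, and the wild-type mice were littermates without the transgene. CA3 was cut by laser from stained frozen sections, and amplification took 2 rounds from 5 ng of RNA. MOE430A holds 6 UBB+1 tg and 5 wild-type mice and MOE430B holds 6 and 6, since the mouse wt331 was measured on the latter alone. In bulk tissue of this kind, fewer cells of a type and less RNA per cell cannot be told apart.

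At excitatory synapses, proteins of the Dlg, Shank and Homer families form the layered scaffold under the postsynaptic membrane. The Dlg proteins lie close to the membrane and hold glutamate receptors and adhesion molecules through PDZ domains, SAPAP proteins (genes Dlgap1 to Dlgap4) link them to Shank proteins, and Homer proteins tie Shank to metabotropic glutamate receptors and to the calcium stores of the cell. Long Homer proteins form multimers through a coiled coil, whereas a short form of Homer1, Homer1a, lacks the coiled coil, is induced by neuronal activity and loosens the links that the long forms make. Dlg4 encodes PSD-95, Dlg2 PSD-93, Dlg3 SAP102 and Dlg1 SAP97. The sequences that the probe sets target were not used here, so that no probe set of Homer1 is assigned to the short or the long forms.

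Homer1 and Homer2 are the members on which the results turn, and their promoters are shown for this reason. Each run holds 250 bases before and 50 after the start of the gene in RefSeq on GRCm38.p6 and is written 5′ to 3′ on the strand of the gene. Homer1 lies on chromosome 13 from 93303757 to 93405129, with the window chr13:93303507-93303806 on the plus strand. Homer2 lies on chromosome 7 from 81600481 to 81706925, with the window chr7:81706876-81707175 on the minus strand. Capitals mark TGACG or its reverse complement CGTCA, the half-site of the cAMP response element.
Homer1: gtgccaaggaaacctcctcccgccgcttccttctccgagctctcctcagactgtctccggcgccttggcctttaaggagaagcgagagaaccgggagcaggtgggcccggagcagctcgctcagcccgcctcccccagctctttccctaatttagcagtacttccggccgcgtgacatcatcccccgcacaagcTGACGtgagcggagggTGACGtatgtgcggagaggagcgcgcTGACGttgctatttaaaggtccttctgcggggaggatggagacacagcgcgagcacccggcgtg
Homer2: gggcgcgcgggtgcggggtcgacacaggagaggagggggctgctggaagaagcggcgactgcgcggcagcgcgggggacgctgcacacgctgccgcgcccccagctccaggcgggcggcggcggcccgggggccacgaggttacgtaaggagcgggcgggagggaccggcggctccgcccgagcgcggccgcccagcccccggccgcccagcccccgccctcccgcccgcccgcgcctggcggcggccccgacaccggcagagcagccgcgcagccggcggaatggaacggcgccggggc
The Homer1 window holds the half-site 3 times, and the Homer2 window does not hold these letters. Of 32851 promoter windows of the same length, 20.8% held the half-site at least once and 1.03% held it 3 times or more. Of 18 windows that RefSeq starts give for 8 members (none for Shank1 and Shank2), 3 held it, 1 each of Homer1, Dlg3 and Dlg4. The base composition of the windows shown was 63% GC for Homer1 and 82.3% GC for Homer2. A match of letters is a description of the sequence and does not show binding.

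None of the 23 probe sets passed a false discovery rate of 10%, and neither did any other probe set of either array (0% of 22625 on MOE430A and 0% of 22511 on MOE430B, limma with the Benjamini-Hochberg adjustment). The study called its regulated genes at the same rate with other software, ChipInspector, and reports that RMA and limma bore the results out. The limma fit here called no probe set, and the cause of this disagreement was not tested. Adjusted p was 0.984 to 0.994 for the members on MOE430A and 1.00 for all on MOE430B. At an unadjusted p under 0.05, 1 member probe set was higher in UBB+1 tg mice (Homer2 1424367_a_at) and 1 lower (Dlg4 1419581_at) on MOE430A, where 1.91% of all probe sets were higher and 1.57% lower at this threshold. On MOE430B, 1 member probe set was higher (Homer1 1437363_at) and none lower, against 1.52% and 1.53% of all probe sets. For no member did the values of the genotypes lie apart without overlap, as was the case for 0.234% of the probe sets of MOE430A and 0.142% of those of MOE430B. The difference UBB+1 tg minus wild type was above 0 for 10 of 14 member probe sets on MOE430A, against 51.7% of all probe sets. The median log2 difference there was 0.04 against 0.00 over all probe sets. On MOE430B the difference was above 0 for 6 of 9, against 47.6% of all, with a median of 0.15 against -0.01. These shares were not tested. A second quantile normalization and centring on the array median turned the sign of no member difference.

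**Figure D1:**
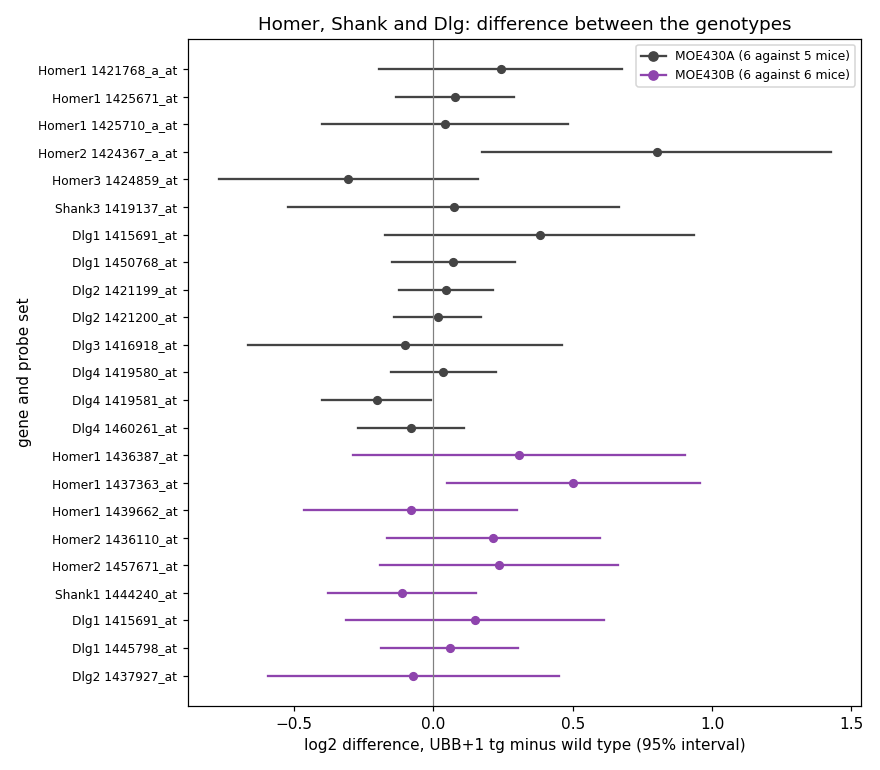
Log2 difference between UBB+1 tg and wild-type mice (horizontal axis) for each of the 23 probe sets of Homer, Shank and Dlg genes (vertical axis). Points are estimates of limma and lines their 95% intervals, for MOE430A in grey and MOE430B in purple. The interval lies above 0 for Homer2 1424367_a_at and Homer1 1437363_at and below 0 for Dlg4 1419581_at, and it holds 0 for the others.

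The arrays fell into 3 sets by the likeness of all their values, and these sets touch several members. They follow the 3′-5′ difference, the log2 intensity at the 3′ end minus that at the 5′ end of 2 control transcripts, Gapdh and β-actin, a measure that grows as amplified RNA is shorter. The low set (tg271, wt287 and wt290) had differences of 2.65 to 3.43 on MOE430A, the middle set 4.44 to 4.62 and the high set (tg270 and wt289) 6.05 to 6.10. The same animals formed the same sets on MOE430B, where wt331 joined the middle set. On MOE430A the genotypes did not differ beyond their spread in this measure, at 4.61 ± 0.83 (SD, n = 6) for UBB+1 tg and 4.10 ± 1.45 (SD, n = 5) for wild type (two-sided exact permutation test, p = 0.435). Both genotypes stand in each set, but 4 of 6 UBB+1 tg mice are in the middle set against 2 of 5 wild-type mice on MOE430A and 3 of 6 on MOE430B. The sets were found in the values and are not a batch named in the labels.

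The tissue expressed the markers of its label in part. The CA3 markers measured on MOE430A, Bok, Nectin3 and Nptx1, stood at the 96.9th, 92.6th and 97.1th percentile of probe set means, and Grik4 at the 90th on MOE430B, where another probe set of Nectin3 was dim at the 20.5th. All 5 measured neuronal markers lay above the array median on each array, while of the 3 markers of dentate granule cells none did on MOE430A and 1, C1ql2 at the 73.2th percentile, did on MOE430B. Markers of astrocytes (4 of 6), oligodendrocytes (3 of 4), microglia (5 of 6), interneurons (5 of 6), vessels (3 of 5), CA2 (2 of 2) and CA1 (1 of 2) also lay above the median of MOE430A. The level of a list, as the mean log2 intensity of its genes on MOE430A, was 6.93 to 7.49 in UBB+1 tg and 6.92 to 7.38 in wild-type mice for astrocytes, 8.03 to 8.56 and 8.06 to 8.36 for oligodendrocytes, and 7.42 to 7.66 and 7.06 to 7.80 for microglia. The genes measured for a list differed between the arrays, so that its difference on MOE430B is not a repeat of that on MOE430A. The level of neurons was 10.09 to 10.64 and 9.76 to 10.60 on MOE430A, a difference of 0.25 in the means. On MOE430B, with Slc17a7 measured in place of Stmn2, the difference was -0.02. For CA2 the level was 7.80 to 10.19 and 7.77 to 9.07, a difference of 0.30 on MOE430A (Pcp4 and Rgs14). On MOE430B, where only Amigo2 was measured, the difference was -0.07. For interneurons the level was 7.54 to 8.64 and 7.98 to 8.32, a difference of -0.16 on MOE430A. On MOE430B only Gad2 was measured, with a difference of -0.15, and Gad2 on MOE430A was at 0.02 (standard error 0.50). Of the other genes on MOE430A, Sst was at -0.82 and Npy at -0.46, whereas Gad1 was at 0.30. For CA3 the level was 10.23 to 10.85 and 10.31 to 10.65, a difference of 0.13 on MOE430A (Bok, Nectin3 and Nptx1). On MOE430B, with Grik4 and the dim probe set of Nectin3, the difference was -0.16. No marker passed the false discovery rate, and the part of the cell makeup in the results below was not tested.

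Homer2, an adaptor that binds its ligands through an EVH1 domain, had the largest difference of all member probe sets. On MOE430A, log2 intensity of 1424367_a_at was 8.05 at the lowest, 8.50 at the median and 8.87 at the highest of the 6 UBB+1 tg mice. In the wild-type mice it was 7.26 in wt287, 7.45 in wt289, 6.89 in wt290, 8.53 in wt291 and 8.28 in wt321. The UBB+1 tg mice thus lay in a narrow range in the upper part of the values, all 6 above the wild-type mean, and the wild-type mice split into 3 well below them and 2 within their range. The means were 8.48 ± 0.31 (SD, n = 6) and 7.68 ± 0.69 (SD, n = 5), a log2 difference of 0.80 (standard error 0.28, 95% interval 0.18 to 1.43) or 1.74-fold (adjusted p = 0.984 from limma). The exact permutation test of this probe set alone, two-sided over 462 splits, gave p = 0.0368, without an adjustment for the 14 probe sets looked at.

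The low wild-type values of Homer2 1424367_a_at are those of the low and high array sets. Within the low set, tg271 was at 8.37 against 7.26 and 6.89 in wt287 and wt290, a difference of 1.29. Within the high set, tg270 was at 8.73 and wt289 at 7.45, a difference of 1.28. In the middle set, with 4 UBB+1 tg mice and wt291 and wt321, the difference was 0.05 (standard error 0.24). The difference of the genotypes in this probe set was therefore large in the low and high sets, which hold 1 UBB+1 tg mouse each, and close to 0 in the middle set. With a block for the array set it was 0.63 (standard error 0.24), with the 3′-5′ covariate 0.70 (standard error 0.27), without the low set 0.42 (standard error 0.28) and without the high set 0.69 (standard error 0.34). Whether the array sets have a part in the result was not tested further.

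The other Homer2 probe sets, on MOE430B, had smaller differences in the same direction. Log2 intensity of 1457671_at was 7.64 to 8.55 (median 7.90) in UBB+1 tg and 7.25 to 8.29 (median 7.67) in wild-type mice, with a difference of 0.24 (standard error 0.20). The values of the genotypes overlapped over most of their range. In this probe set the low array set went the other way, with tg271 at 7.93 below wt287 at 8.12 and wt290 at 8.29, whereas tg270 at 8.55 was above wt289 at 7.56. Without the low set the difference was 0.47 (standard error 0.20) and without the high set 0.08 (standard error 0.20). Probe set 1436110_at was at 6.17 to 7.03 (median 6.29) and 5.76 to 6.57 (median 6.37), a difference of 0.21 (standard error 0.18). Its medians stood in the opposite order to its means, because tg276 and tg277 at 6.91 and 7.03 lay above all other mice.

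Homer1, whose long and short forms compete for the same ligands, had 6 probe sets that differed in brightness and in the size of the difference. The brightest for its array, 1437363_at on MOE430B at the 98.1th percentile of probe set means, was at 10.12 in tg270, 9.43 in tg271, 9.84 in tg273, 9.54 in tg274, 9.92 in tg276 and 10.01 in tg277. In wild-type mice it was at 8.57 in wt287, 9.81 in wt289, 8.83 in wt290, 9.71 in wt291, 9.50 in wt321 and 9.43 in wt331. All 6 UBB+1 tg mice lay above the wild-type mean, and the lowest values were those of wt287 and wt290, both of the low array set. The means were 9.81 ± 0.27 and 9.31 ± 0.50 (SD, n = 6 each), a log2 difference of 0.50 (standard error 0.21, 95% interval 0.05 to 0.95) or 1.42-fold (adjusted p = 1.00 from limma). The exact permutation test, two-sided over 924 splits, gave p = 0.0498 for this probe set alone, unadjusted for the 9 looked at.

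The difference in Homer1 1437363_at was above 0 within each array set. That in Homer2 1424367_a_at was close to 0 in the middle set, at 0.05 (standard error 0.24), and its size varied more between the sets. For Homer1 1437363_at it was 0.73 in the low set (tg271 against wt287 and wt290), 0.28 in the middle set (4 against 3 mice, standard error 0.13) and 0.31 in the high set (tg270 against wt289). With a block for the array set it was 0.39 with a smaller standard error of 0.11, and with the 3′-5′ covariate 0.31 (standard error 0.10). Without the low set it was 0.27 (standard error 0.12), and no adjusted test was passed in any of these fits. Whether the size of the difference depends on the array set was not tested.

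The remaining Homer1 probe sets had smaller differences, which lay within the spread between mice. On MOE430B, 1436387_at was at 7.45 to 8.96 (median 7.89) in UBB+1 tg and 6.78 to 8.09 (median 7.95) in wild-type mice, with a difference of 0.31 (standard error 0.28). The 2 values that stand out are tg270 at 8.96 and wt331 at 6.78, and without wt331 the difference was 0.12. The third, 1439662_at, was at 7.87 to 8.78 and 8.05 to 8.83, a difference of -0.08 (standard error 0.18). The 3 probe sets on MOE430A were dim, at or below the 20.8th percentile of means. Their differences were 0.24 (standard error 0.20) for 1421768_a_at, 0.08 (standard error 0.10) for 1425671_at and 0.04 (standard error 0.20) for 1425710_a_at. In 1425671_at several mice were tied, since MOE430A was deposited in whole numbers, and its difference is smaller than the step between neighbouring values. In 1421768_a_at the highest mouse was tg274 at 5.70, and without it the difference was 0.10. Probe sets of 1 gene can target different ends and forms of its transcripts, which is not resolved here.

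Homer3, the third EVH1 adaptor, was measured by 1 probe set, whose mean was lower in UBB+1 tg mice. Log2 intensity of 1424859_at was 7.69 to 8.48 (median 8.22) in UBB+1 tg mice. In wild-type mice it was 8.78 in wt287, 8.65 in wt289, 9.01 in wt290, 7.91 in wt291 and 8.07 in wt321. The genotypes overlapped, and the 3 wild-type mice above all UBB+1 tg mice are the same 3 that were low for Homer2 1424367_a_at. The difference was -0.30 (standard error 0.21, 95% interval -0.77 to 0.16, exact permutation test, two-sided, p = 0.216). It was -0.41 in the low set, -0.57 in the high set and 0.14 in the middle set, so that its sign turned in the largest set.

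**Figure D2:**
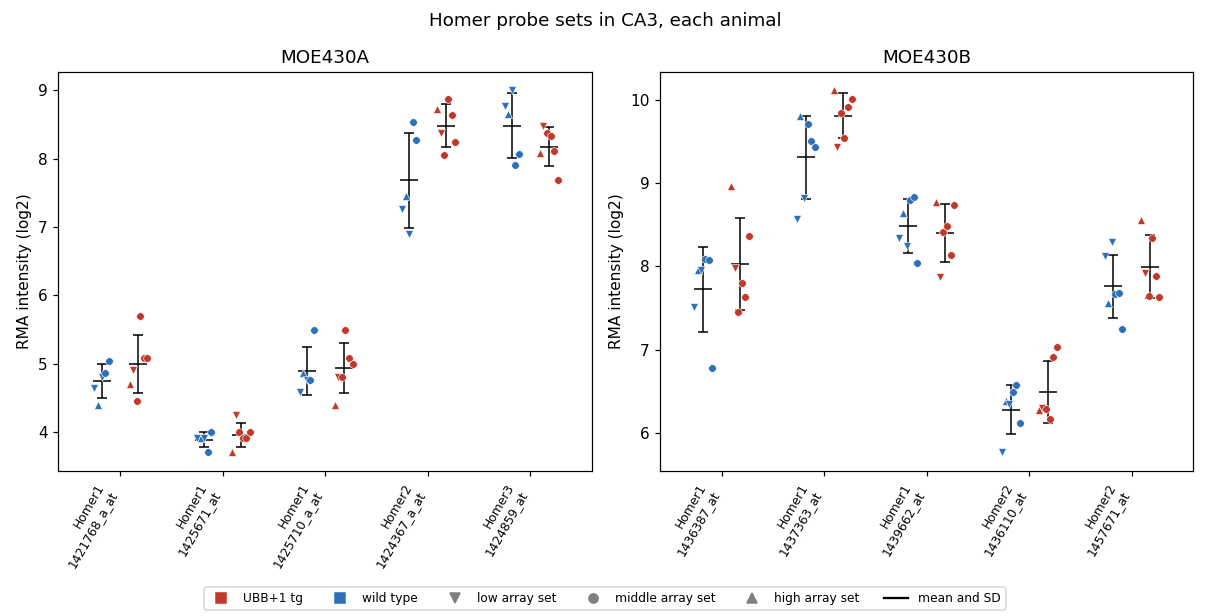
Log2 RMA intensity (vertical axes) of each Homer probe set (horizontal axes) in each wild-type mouse (blue) and UBB+1 tg mouse (red), on MOE430A (left) and MOE430B (right), with the mean and SD in black. Downward triangles, circles and upward triangles stand for the low, middle and high array set, and for Homer2 1424367_a_at the 3 wild-type mice below 8 are those of the low and high sets.

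Shank proteins are the large scaffolds between the Dlg and Homer layers, and loss of Shank3 is known from a form of autism. Shank3 1419137_at, at the 81st percentile on MOE430A, was at 7.32 in tg270 and 8.26 to 8.78 in the other 5 UBB+1 tg mice. In wild-type mice it was at 8.40 in wt287, 7.39 in wt289, 8.59 in wt290, 8.36 in wt291 and 8.34 in wt321. Both low mice, 1 of each genotype, are the 2 animals of the high array set, and the other 9 mice lay within 8.26 to 8.78. The difference between the genotypes was 0.07 (standard error 0.27, 95% interval -0.52 to 0.67). Without the high set it was 0.06 with a standard error of 0.11, less than the standard error of all mice. A difference of this size was within the spread between mice in both cases.

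Shank1 was measured by 1444240_at on MOE430B, close to the median brightness of its array. Its log2 intensity was 5.29 to 5.81 (median 5.39) in UBB+1 tg and 5.31 to 6.00 (median 5.50) in wild-type mice. The highest mice were those of the low array set, tg271 at 5.81, wt287 at 6.00 and wt290 at 5.64. The difference was -0.11 (standard error 0.12) over all mice and -0.04 (standard error 0.07) with a block for the array set. For the Shank genes measured, no difference beyond the spread between mice was seen, and for Shank1 the 95% interval was -0.38 to 0.15.

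Dlg1, encoding SAP97, had the largest positive difference among the Dlg genes. Probe set 1415691_at stands on both arrays, so that 11 mice have a value from each. On MOE430A it was at 8.85 to 10.04 (median 9.13) in UBB+1 tg mice, and at 8.49 in wt287, 9.59 in wt289, 8.97 in wt290, 8.66 in wt291 and 8.76 in wt321. The highest mice of both genotypes were again tg270 and wt289 of the high set. The difference was 0.38 (standard error 0.25, 95% interval -0.17 to 0.94, exact permutation test, two-sided, p = 0.199) on MOE430A and 0.15 (standard error 0.21, 95% interval -0.31 to 0.61) on MOE430B. The value of a mouse on MOE430A minus that on MOE430B ran from -0.05 to 0.52, on scales that were normalized separately. With a block for the array set, the difference was 0.38 (standard error 0.16, unadjusted p under 0.05) on MOE430A and 0.13 (standard error 0.18) on MOE430B. Differences were 0.07 (standard error 0.10) for Dlg1 1450768_at and 0.06 (standard error 0.11) for the dim 1445798_at.

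Dlg4, encoding PSD-95, the most abundant scaffold of this family at excitatory synapses, had 3 probe sets on MOE430A that differed little between the genotypes. The brightest, 1419580_at, was at 6.91 to 7.17 (median 7.03) in UBB+1 tg and 6.79 to 7.17 (median 7.07) in wild-type mice, a difference of 0.04 (standard error 0.09, 95% interval -0.15 to 0.23). The ranges of the genotypes overlapped almost entirely. Probe set 1419581_at, at the 24.4th percentile, was at 4.86 to 5.17 (median 5.04) in UBB+1 tg mice and at 5.36 in wt287, 5.36 in wt289, 5.25 in wt290, 5.17 in wt291 and 5.04 in wt321. All 6 UBB+1 tg mice lay below the wild-type mean, and the ranges overlapped in the mice wt291 and wt321. The difference was -0.20 (standard error 0.09, exact permutation test, two-sided, p = 0.0519), and within the middle array set it was -0.09 (standard error 0.12). With a block for the array set it was -0.16 (standard error 0.09) and no longer at an unadjusted p under 0.05. The third, 1460261_at, had a difference of -0.08 (standard error 0.09).

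Dlg2, encoding PSD-93, was bright only in 1437927_at on MOE430B. It was at 7.41 to 8.31 (median 7.91) in UBB+1 tg and 7.32 to 8.76 (median 7.93) in wild-type mice, a difference of -0.07 (standard error 0.24). Here wt287 at 8.58 and wt290 at 8.76 of the low set were the highest mice, while the third mouse of that set, tg271, was at 7.92. Without the low set the difference was 0.26 (standard error 0.20), so that its sign turned. Its probe sets 1421199_at and 1421200_at on MOE430A were at the 11th and 10.2th percentile, with differences of 0.05 (standard error 0.08) and 0.02 (standard error 0.07). Both differences are smaller than the step between neighbouring values, since MOE430A was deposited in whole numbers and mice are tied at this brightness.

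Dlg3, encoding SAP102, a scaffold prominent at young synapses, was measured by 1416918_at on MOE430A. It was at 7.97 to 9.07 (median 8.62) in UBB+1 tg mice, and at 8.72 in wt287, 9.15 in wt289, 8.91 in wt290, 7.96 in wt291 and 8.44 in wt321. The genotypes covered the same range, and in both the middle set held the lower values. The difference was -0.10 (standard error 0.26) over all mice, and a block for the array set gave 0.07 (standard error 0.16).

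**Figure D3:**
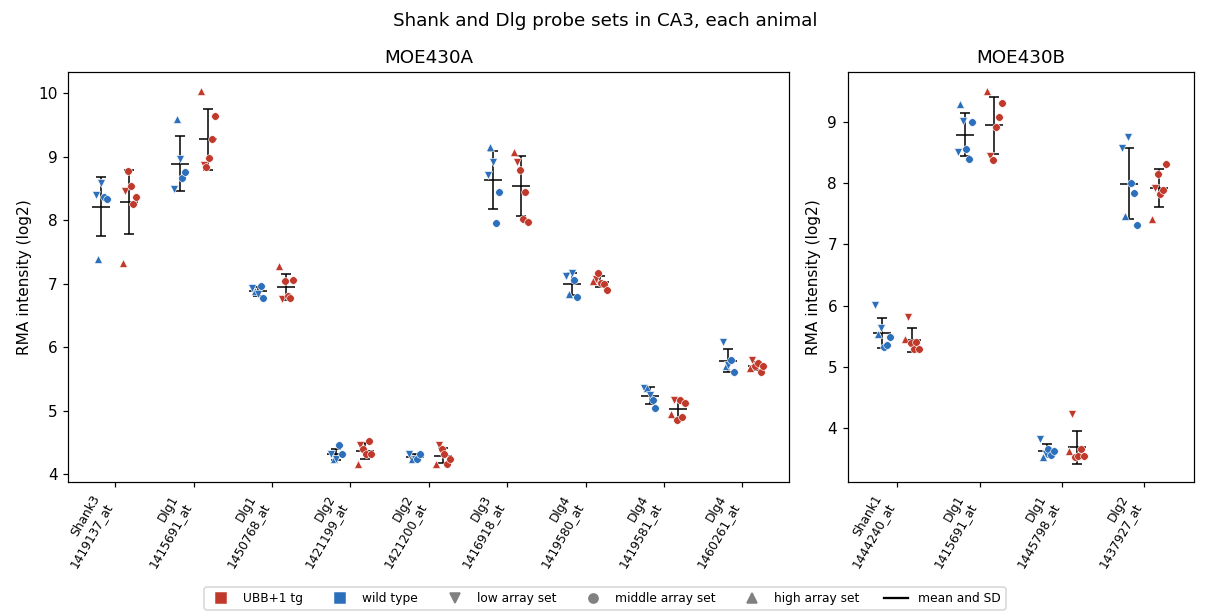
Log2 RMA intensity (vertical axes) of each Shank and Dlg probe set (horizontal axes) in each wild-type mouse (blue) and UBB+1 tg mouse (red), on MOE430A (left) and MOE430B (right), with the mean and SD in black and the array sets as downward triangles (low), circles (middle) and upward triangles (high). For Shank3 1419137_at the mice at 7.32 and 7.39 are those of the high set.

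The fits that take the array sets into account moved the differences of members without changing any adjusted call. The Homer1 probe set 1437363_at stayed between 0.27 and 0.54 in the fits with a block, with the covariate or without 1 or both outer sets. For Homer2 1424367_a_at the same fits ran from 0.05 to 0.70. For Dlg1 1415691_at on MOE430A they ran from 0.24 to 0.47.

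**Figure D4:**
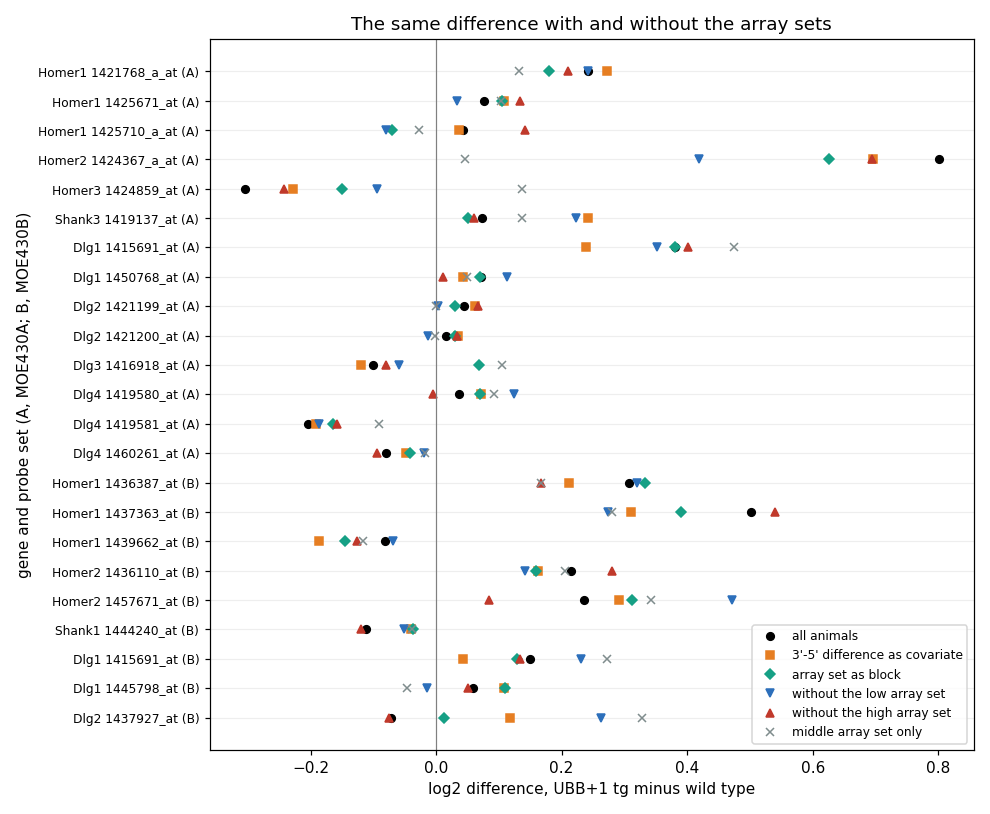
Log2 difference between UBB+1 tg and wild-type mice (horizontal axis) for each probe set (vertical axis) over all mice, with the 3′-5′ covariate, with a block for the array set, and without the low, the high or both of these array sets. Homer2 1424367_a_at moves from 0.80 to 0.05, whereas Homer1 1437363_at keeps 0.27 or more.

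Genes that bind or neighbour the scaffolds were described by lists of their known partners, and no probe set of any list passed the false discovery rate. For all lists below, the share of all probe sets with a higher mean in UBB+1 tg mice was 51.7% on MOE430A and 47.6% on MOE430B. The shares at an unadjusted p under 0.05 are those given above for all probe sets. Among ligands of Homer and Shank, 13 of 26 probe sets on MOE430A and 4 of 7 on MOE430B had a higher mean in UBB+1 tg mice, with medians of 0.03 and 0.01. At an unadjusted p under 0.05 were 1 higher, Trpc1 1421096_at, a calcium-permeable channel that binds Homer, at 0.48 (standard error 0.21), and 1 lower, Dnm3 1446265_at, a dynamin of the endocytic zone of spines, at -0.86 (standard error 0.28). For Dnm3 1446265_at none of the 6 UBB+1 tg mice lay above the wild-type mean, with means of 4.85 ± 0.20 and 5.71 ± 0.75 (SD, n = 6 each). The other probe sets of Dnm3 ran from -0.17 (1436875_at, standard error 0.24) to 0.26 (1436624_at, standard error 0.25). The last of these was the brightest of Dnm3, at the 97.5th percentile. The other probe set of Trpc1, the dim 1421095_a_at, was at -0.17 (standard error 0.13). Among the SAPAP adaptors between Dlg and Shank, 0 of 1 probe set on MOE430A and 4 of 9 on MOE430B had a higher mean, and none had an unadjusted p under 0.05. The 2 genes with the lowest p were Dlgap1, with 1443508_at at 0.22 (standard error 0.12) and 1436076_at at 0.15 (standard error 0.12), and Dlgap3, with 1436381_at at -0.36 (standard error 0.34). The other probe sets of Dlgap1 ran from -0.04 (1438098_at, standard error 0.13) to 0.22 (1429105_at, standard error 0.44).

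Among ligands and linkers of Dlg proteins, 14 of 21 probe sets on MOE430A and 11 of 20 on MOE430B had a higher mean, with medians of 0.02 and 0.05. Of these, 2 higher and 1 lower had an unadjusted p under 0.05, all on MOE430A. The higher ones were 2 of the 7 probe sets of Kif1b, a kinesin motor, 1423994_at at 0.43 (standard error 0.15) and 1423995_at at 0.37 (standard error 0.16), with 6 of 6 UBB+1 tg mice above the wild-type mean in each. The other 5 probe sets of Kif1b ran from -0.0016 (1455182_at, standard error 0.08) to 0.49 (1451200_at, standard error 0.43). The lower one was Cript 1423486_at, which encodes a protein binding the third PDZ domain of PSD-95, at -0.41 (standard error 0.15). The other probe set of Cript, the less bright 1423487_at, was at -0.0012 (standard error 0.12). Among other PDZ and MAGUK scaffolds, 15 of 24 and 10 of 24 probe sets had a higher mean, and Lin7a 1438450_at on MOE430B, a partner of Cask, was the 1 with an unadjusted p under 0.05, at 0.61 (standard error 0.19). The other probe sets of Lin7a were at 0.25 (1435805_at, standard error 0.14) and 0.05 (1456656_at, standard error 0.47).

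Since Homer1a belongs to the genes induced by neuronal activity, such genes were set beside Homer1. On MOE430A, 1 of 7 probe sets (Egr1) had a higher mean in UBB+1 tg mice, with a median of -0.41 over the list, and the 1 on MOE430B (Npas4) was at -0.29 (standard error 0.16). Arc 1418687_at, an activity-induced protein of the postsynapse, was at 6.95 ± 0.38 (SD, n = 6) in UBB+1 tg and 7.36 ± 0.14 (SD, n = 5) in wild-type mice, a difference of -0.41 (standard error 0.17), and Junb 1415899_at was at -0.43 (standard error 0.16). None of the 6 UBB+1 tg mice lay above the wild-type mean for either gene. The Homer1 probe set 1437363_at thus had a higher mean in UBB+1 tg mice while most of these genes had a lower one. Of the other bright Homer1 probe sets, 1439662_at was at -0.08 (standard error 0.18) and 1436387_at at 0.31 (standard error 0.28). None of them is assigned to Homer1a. Neither Homer1 nor these genes passed the false discovery rate (adjusted p = 0.984 from limma for Arc and Junb). The difference between Homer1 and these genes was not tested.

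The probe sets most like the leading members across animals were named by Pearson's r on the same array, as a description. Most like Homer2 1424367_a_at over 11 mice were Ctsb (r = 0.91), encoding the lysosomal protease cathepsin B, Matn2 (r = 0.91), encoding a matrix protein, and Trip12 (r = 0.90), encoding a ubiquitin ligase. Most like Homer1 1437363_at over 12 mice were Appl1 (r = 0.96), encoding an endosomal adaptor, Rbfox1 (r = 0.96), encoding a splicing regulator, and Abi2 (r = 0.95), encoding a regulator of actin. These coefficients are the highest among all probe sets with 1 gene, and the animals share the array sets described above.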

How the data were processed

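Expression in CA3 was measured on Affymetrix arrays with 1 colour. They give brightness rather than counts, so that precision is set by the number of mice. The deposited intensity values of MOE430A and the deposited log2 values of MOE430B were made by the authors with RMA (background correction, quantile normalization, summary per probe set), with MOE430A and MOE430B treated apart. The values of MOE430A are linear whole numbers, whose log2 was taken here. The methods name CARMAweb for RMA and limma, and its version is not given in the sources used here. Quantile normalization gives all arrays of a kind the same distribution, and amplification in 2 rounds favours the 3′ part of transcripts.

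Left out were 64 control probe sets on each array and, on MOE430A, 1427508_at, which detects the promoter of the transgene and which the methods also leave out. Genes were taken from the array annotation: 1 gene was named for 20379 probe sets of MOE430A and 14661 of MOE430B, several for 691 and 245, and none for 1555 and 7605. Positions and promoters are those of RefSeq on GRCm38.p6. Probe sets are described by the percentile of their mean on the array, since levels of different probe sets cannot be compared.

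Groups and animals came from the sample labels. The genotypes were compared in limma 3.58.1 (lmFit, eBayes; R 4.3.3) over all probe sets, each difference being UBB+1 tg minus wild type, with the Benjamini-Hochberg adjustment per array. Exact permutation tests of single probe sets were two-sided. Tested on simulated data with the fit of MOE430A over 22625 probe sets, 53.7% of changes of 1.5-fold, 80.6% of 2-fold and 97% of 3-fold were recovered, and 80.6%, 91% and 97% with that of MOE430B over 22511. The simulated noise had the SD of each probe set around its genotype means and was independent between probe sets. It held no array sets, so that these shares check the code and are not the power of the comparison made here.

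Array sets are the 3 clusters of a complete-linkage tree of the arrays, with 1 minus Pearson r as the distance. Alternatives were a false discovery rate of 5%, leaving out probe sets below the 25th percentile of means or with names ending in _s_at, _x_at or _a_at, a second quantile normalization, median centring, array weights, a variance model with trend and robust estimation, the 3′-5′ difference as a covariate, the array set as a block, the middle array set alone, the animals on both arrays, the brightest probe set or the mean of a gene, and leaving out each animal. Fits without the low or the high array set, and the counts at an unadjusted p under 0.05, were added after seeing the data. Named were all members, the genes of each partner list at an unadjusted p under 0.05 or the 2 with the lowest p, the 3 probe sets most like the leading member of each array, and markers of the tissue. Members, lists, tests and the array sets were chosen with earlier results of these data known.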

Additional observations from a re-analysis of the deposited data

Results flagged for a closer look

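Of 46 groups of mice (1 genotype in 1 member probe set), 4 held a mouse that stood apart from the others of its genotype by Dixon's criterion, which chance alone meets in about 1 of 20 groups. For Shank3 1419137_at on MOE430A these were tg270 at a log2 intensity of 7.32, with the nearest UBB+1 tg mouse at 8.26, and wt289 at 7.39, with the nearest wild-type mouse at 8.34. Both animals form the high array set. On MOE430B, tg271 of the low array set stood apart in Shank1 1444240_at at 5.81, with the nearest UBB+1 tg mouse at 5.45, and in the dim Dlg1 1445798_at at 4.21 (nearest 3.65). The part of the array sets in these values was not tested.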

How the results depend on the processing

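The count of member probe sets past the false discovery rate was 0 on both arrays in all alternatives run, of which the restriction to animals on both arrays concerns only MOE430B. The count at an unadjusted p under 0.05 on MOE430A was 2, and became 1 (Homer2 1424367_a_at) without dim probe sets, 1 (Dlg4 1419581_at) without probe sets named _s_at, _x_at or _a_at (which leaves out Homer2 1424367_a_at itself), 1 (Homer2 1424367_a_at) with the covariate 3′-5′ difference, 1 (Dlg1 1415691_at) without the high array set, 0 without the low one and 0 in the middle set alone. With the array set as a block it stayed 2, with Dlg1 1415691_at in place of Dlg4 1419581_at. It was 1 to 3 when 1 mouse was left out. Homer2 1424367_a_at was under this threshold in every fit without 1 mouse, Dlg4 1419581_at was not without tg270, tg273, tg276, wt287, wt289 or wt290, and Dlg1 1415691_at without wt289 and Homer3 without wt291 came under it. On MOE430B the count was 1, with 0 in the middle set alone and 0 to 1 when 1 mouse was left out (0 without tg270, tg273, tg276, tg277, wt287 or wt290). Without the low array set, the 1 probe set was Homer2 1457671_at in place of Homer1 1437363_at. With 1 mouse left out, Homer2 1424367_a_at ran from 0.60 to 1.01 and Homer1 1437363_at from 0.35 to 0.60.

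Of 528 member differences under an alternative, 491 kept their sign and 37 turned it, in 10 probe sets and in the gene value of Dlg4 (0.036 for the brightest probe set against a median of -0.08). With the array set as a block, Dlg3 became 0.068, Homer1 1425710_a_at -0.071 and Dlg2 1437927_at 0.013. In the middle set alone, Dlg3 became 0.11, Homer3 0.14, Homer1 1425710_a_at -0.027, Dlg2 1437927_at 0.33, Dlg2 1421199_at -0.00075, Dlg2 1421200_at -0.0019 and Dlg1 1445798_at -0.046. Array weights gave -0.010 for Dlg4 1419580_at, -0.0024 for Dlg2 1421200_at, 0.022 for Dlg2 1437927_at and -0.011 for Dlg1 1445798_at, and the covariate 0.12 for Dlg2 1437927_at. Without the low set, Dlg2 1437927_at became 0.26, Dlg2 1421200_at -0.012, Homer1 1425710_a_at -0.079 and Dlg1 1445798_at -0.014, and without the high set Dlg4 1419580_at became -0.0044. With 1 mouse left out, Dlg1 1445798_at ran from -0.049 to 0.096, Dlg2 1421200_at from -0.017 to 0.041, Dlg2 1437927_at from -0.21 to 0.080, Dlg3 from -0.27 to 0.028, Dlg4 1419580_at from -0.015 to 0.079, Homer1 1425710_a_at from -0.070 to 0.19, Homer1 1439662_at from -0.17 to 0.025 and Shank3 from -0.13 to 0.27. The cause was not tested in any of these. Dim probe sets, among them all of Homer1 on MOE430A, limit what can be said of those transcripts. No paired analysis was possible because the genotypes share no animal numbers or litters in the labels.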
